A study of Mus musculus with 13 samples.

Results

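The culture time course of hepatic stellate cells (HSC) comprised 4 of the 13 arrays of the series: 2 arrays of HSC cultured for 1 day, 1 of HSC cultured for 7 days and 1 of HSC cultured for 14 days. The 4 arrays were taken by their titles, and no expression value entered the choice. Biotin-labelled cRNA was prepared by an Affymetrix protocol and hybridised to arrays that give 1 intensity per probe set. All mice were naive C57BL/6 animals aged 6-10 weeks. HSC were grown at 37°C and 5% CO2 in DMEM containing 10% FBS (fetal bovine serum), and the series calls them culture-activated. The other 9 arrays, 3 for each cell type, held freshly sorted cells: hepatocytes, Kupffer cells (liver macrophages) and sinusoidal endothelium (LSEC). No array of uncultured HSC was analysed here, so day 1 is the earliest state seen. The 7-day and 14-day states rest on 1 array each, and among the HSC titles only the day 1 pair is called biological replicates. The labels do not say whether that pair came from different mice. The spread of the pair is 1 part of the spread behind the p-values, and whether it includes variation between mice is thus unknown.

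Stellate cells lie between hepatocytes and the sinusoidal endothelium, where in a healthy liver they store vitamin A as retinyl esters. After injury, or when plated in serum-containing medium, they lose this storage and take on traits of myofibroblasts: actin-based contraction, secretion of fibrillar collagen and entry into the cell cycle. TGF-beta, which signals through SMAD proteins, PDGF, a growth factor read by receptor tyrosine kinases, and the stiffness-sensing YAP and MRTF-SRF systems are among the known drivers of this change.

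The question asked was how HSC after 7 or 14 days of culture (called long-cultured here) differ from HSC after 1 day, and whether the differences were already complete at day 7. Differences are given on the scale log2(intensity + 83), where the constant is the pooled 20th percentile of all intensities, and this scale understates the fold of dim genes. Genes were called in limma at a Benjamini-Hochberg adjusted p under 0.05 with a log2 difference of 1 or more in size, that is 2-fold on this scale. Such an adjusted p from limma is meant throughout, with n = 2 arrays on each side. A value in brackets after the intensities of a gene is its log2 difference, long-cultured minus 1-day HSC, and amounts by which a gene rose are on the same scale. Of 12368 genes tested, 683 were higher in long-cultured than in 1-day HSC (5.52%) and 528 were lower (4.27%), 9.79% in all. Both later arrays lay beyond both day 1 arrays for 1209 of the 1211 called genes, while over all tested genes both later arrays lay above both day 1 arrays for 31.7% and below them for 41.3%. The median difference of all tested genes was -0.04. Genes were tested where at least 2 arrays exceeded the pooled median intensity. With 1 array left out some genes no longer met this, so list counts are given where needed with the same genes tested as well, an alternative chosen after seeing the data. In this test the difference between day 7 and day 14 counts as spread, and most of the spread comes from the sorted cells, so the p-values do not measure variation between repeat cultures. Just inside the size limit lay Wwp1 and Alg8, at 1 and -1 to 3 decimals, and just outside it Tnks1bp1 at 0.9997 and Ppp4r3a at -0.9995.

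Across probe sets the day 1 pair correlated at r = 0.9938 on the log2 scale and the 7-day and 14-day arrays at 0.9852. Each later array correlated with each day 1 array at 0.936 to 0.9396, and pairs within a sorted population at 0.9859 to 0.9957. These are descriptions across probe sets, which share arrays and are no replicates. The label was set beside a few marker genes, which do not stand for all stellate genes. Des, which encodes the intermediate filament desmin of stellate cells, had intensities of 2707 and 2932 at day 1, 3769 at day 7 and 4019 at day 14, against means of 124 to 133 in the sorted populations. The PDGF receptor gene Pdgfrb had 3176 and 3531 at day 1, 5447 at day 7 and 5278 at day 14, against 122 to 139. Both genes were thus far above the sorted cells on all 4 HSC arrays. Gfap, a stellate marker best known from rat, stayed between 104 and 111 on the HSC arrays and did not pass the filter on low values. In the stellate and retinoid list, few day 1 means were past 2-fold above the highest sorted mean. This held for 0 of 6 members called higher, 5 of 6 called lower and 3 of 23 not called. Over all tested genes the shares were 8.64%, 10.2% and 1.83%.

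Most of the change was in place by day 7. Each gene was placed in a class from its step between day 1 and day 7 and its step between day 7 and day 14, with 2-fold as the limit for a step. Of the 683 genes called higher, 560 (82%) were early, with a step by day 7 and none after it, against 1121 of all 12368 tested genes (9.06%). Another 56 were gradual, with neither step past the limit but their sum past it, 36 were transient, 17 were late and 14 were progressive, with steps the same way in both intervals. The genes called lower held a larger share of gradual ones: 105 of 528 (19.9%) were gradual, 400 (75.8%) early, 12 progressive, 8 late and 3 transient. The calls used the same arrays as the classes, so these shares are a description. Genes with neither a step nor a sum of steps past the limit, 86% of all tested, could not be called. The gap between 82% and 9.06% follows in part from this. The call also counts the day 7 to day 14 difference as spread, which favours early genes. Among all tested genes 99 were late, of which 17 were called higher and 8 lower. Between single arrays, 747 genes (6.04%) were past 2-fold higher and 468 (3.78%) past 2-fold lower at day 7 than at day 1, 9.82% in all. At day 14 against day 1 the counts were 680 (5.5%) and 708 (5.72%), 11.2% in all. At day 14 against day 7 they were 71 (0.574%) and 122 (0.986%), 1.56% in all, and 57 genes (0.461%) were past 2-fold apart between the day 1 arrays. The SD over genes of the log2 difference was 0.65 for day 7 against day 1, 0.31 for day 14 against day 7 and 0.20 between the day 1 arrays.

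**Figure D1:**
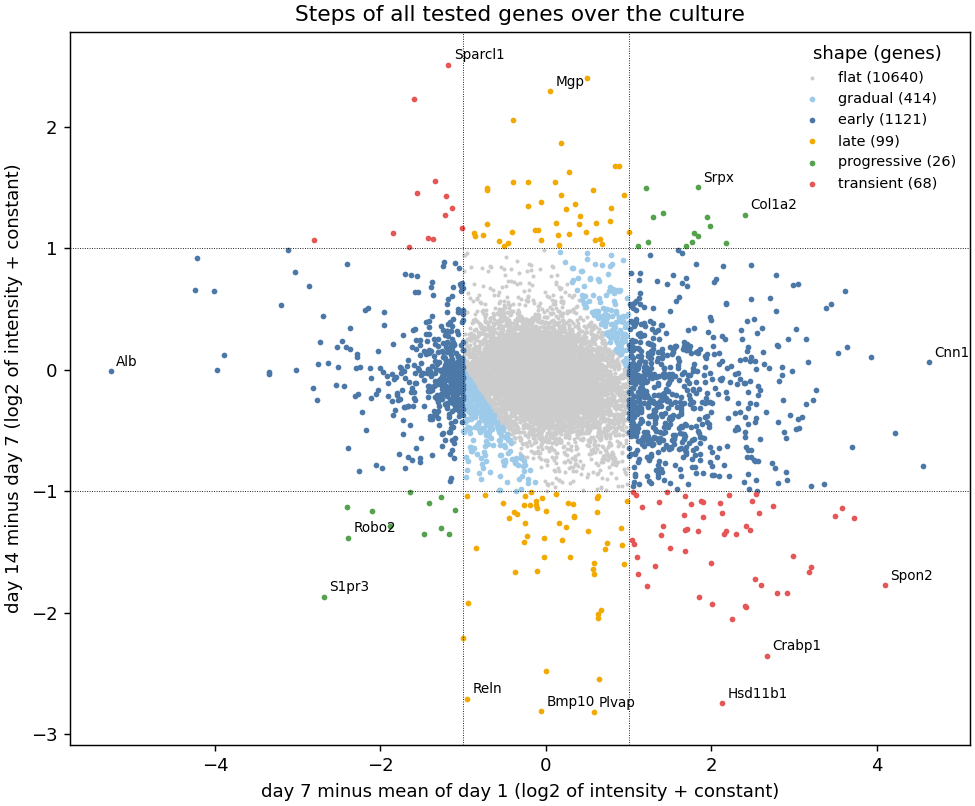
Each point is 1 of 12368 tested genes. The horizontal axis gives day 7 minus the day 1 mean and the vertical axis day 14 minus day 7, both as log2(intensity + 83), dotted lines mark 2-fold steps and colours mark the class of shape. Early genes (1121) spread along the horizontal axis with Cnn1 at the right and Alb at the left, while Reln, Plvap and Bmp10 lie at the bottom and Sparcl1 at the top.

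Contractile genes gave the largest rise of all. Cnn1, a calponin of differentiated smooth muscle, had 158 and 160.3 at day 1, 5888 at day 7 and 6146 at day 14. Long-cultured minus 1-day HSC gave 4.66 on the log2 scale (SE 0.086, adjusted p = 4.4e-12). The sorted cells had means of 125 to 133 on this probe set, and both later arrays lay far above both day 1 arrays. Actg2, the enteric gamma-actin, had 341 and 408 at day 1, 4906 at day 7 and 7193 at day 14 and rose by 3.72. Myh11, the smooth muscle myosin heavy chain, had 287 and 457 at day 1, 2824 at day 7 and 2849 at day 14 (2.71), and Itga8, an integrin subunit that marks contractile mesenchymal cells, had 157 and 175 at day 1, 1232 at day 7 and 1317 at day 14 (2.45). For all 3 genes the later arrays were well apart from day 1, and the step from day 7 to day 14 was under 2-fold.

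A different pattern held for the most widely used activation marker. Acta2, alpha-smooth muscle actin, had 7461 and 9745 at day 1, 15224 at day 7 and 14597 at day 14, and its difference of 0.80 (SE 0.14, adjusted p = 6.7e-04) was below the size limit. The day 1 arrays stood far above the sorted cells, whose means were 216 to 245. Tagln, which encodes the actin-binding protein SM22, had 6697 and 7734 at day 1, 9351 at day 7 and 7935 at day 14, a difference of 0.26 with adjusted p = 0.1, against 151 to 171 in the sorted cells. Of the 33 contractile and actin genes tested (all 35 had a probe set), 12 rose, 0 fell and 21 were not called, and the median difference was 0.70 against -0.04 over all tested genes. In 7 of the 21 uncalled members the day 1 mean was past 2-fold above the highest sorted mean, against 1.83% of uncalled genes overall. The same held for 3 of the 12 that rose, against 8.64% of all genes that rose. The sorted cells are other cell types and not uncultured HSC, so a rise before day 1 was not tested. The other called members were Tpm2, Myl9, Cav1, Myh10, Lmod1, Fhl2, Vcl and Ldb3, with differences of 2.40, 2.28, 2.07, 1.91, 1.47, 1.22, 1.22 and 1.04. The call of Ldb3 was lost without the second day 1 array (0.99) and without the 14-day array (0.99). Nexn at 0.97 and the myosin kinase gene Mylk at 0.94 came closest without being called. The members left out by the filter were Myocd, a smooth muscle coactivator of SRF, at 85.4 to 125 over the 4 arrays, and Pdlim3 at 118 to 159. Genes counted as markers of vascular smooth muscle and pericytes, a list that shares 4 members with the contractile one that rose, went both ways: of 11 tested, 6 rose, among them Cnn1, Actg2, Myh11 and the signalling regulator Rgs4 (1.69), and 2 fell, the pericyte genes Rgs5 (1101 and 1144 at day 1, 287 at day 7 and 128 at day 14) and Abcc9 (-1.47). Without the 7-day array 3 of the list rose and without the 14-day array 2, but 6 and 5 with the same genes tested, and the call of Abcc9 was lost without the 14-day array (-0.95) or either day 1 array (adjusted p = 0.072 and 0.093). The summed intensity of that list was 5196 and 5754 at day 1, 19200 at day 7 and 21580 at day 14, and the part of such cells in these rises was not tested.

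Sequences are shown here for a pair of rising contractile genes because SRF, the factor that drives such genes, binds the CArG box, and RefSeq promoter windows (250 bases before to 50 after a start, GRCm38.p6) hold that box. It was searched on both strands, and its pattern matches on each, so 1 box is found on both. Windows were found for 30 of the 35 list genes. A CArG box was present in 9 of their 37 windows (24.3%), against 1.63% of all 32851 windows. The genes holding one were Cnn2, Fhl2, Ldb3, Myl6, Myl9, Srf and Vcl, of which Fhl2, Ldb3, Myl9 and Vcl rose. Myl9, the regulatory light chain of myosin, had 1375 and 2137 at day 1, 9661 at day 7 and 7734 at day 14, and Vcl, the focal adhesion protein vinculin, had 2943 and 3438 at day 1, 7486 at day 7 and 7503 at day 14. The stretches lie before the start on the plus strand at chr2:156775263-156775352 for Myl9 and chr14:20929148-20929220 for Vcl, with the box in capitals.
Myl9: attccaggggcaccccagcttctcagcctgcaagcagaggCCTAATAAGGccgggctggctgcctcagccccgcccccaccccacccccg
Vcl: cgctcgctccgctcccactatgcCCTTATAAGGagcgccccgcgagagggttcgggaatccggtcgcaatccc
A match is a description of the letters in this window and not evidence of binding. No box within this window says only that these letters are not there. Cnn1 and Acta2 are not among the matches, and whether they were among the 30 genes with windows is not given here.

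Many genes of the fibrillar matrix rose in long culture, and most were higher at day 14 than at day 7, mainly by less than 2-fold. Col1a1, the main chain of type I collagen, had 935 and 905 at day 1, 6807 at day 7 and 11780.1 at day 14, a difference of 3.17 (SE 0.18, adjusted p = 5.3e-08). Its partner chain Col1a2 had 711 and 674 at day 1, 4020.2 at day 7 and 9861 at day 14 and rose by 3.04, and Col3a1 of type III collagen had 342 and 323 at day 1, 1397 at day 7 and 3098 at day 14 and rose by 2.39. Col1a2 and Col3a1 were progressive, past 2-fold in both intervals, and the day 14 array was the highest of the 4 for all 3 genes. Col8a1, a short-chain collagen of vessel walls, had 632 and 621 at day 1, 6161 at day 7 and 7361 at day 14 (3.27), and the fibril-associated Col12a1 rose by 2.56. Col6a3, a chain of the microfibril-forming type VI collagen, had 417 and 435 at day 1, 827 at day 7 and 2835 at day 14 and rose by 1.68. That call was lost without the 14-day array, where the difference was 0.84. In all, 15 of 26 tested matrix genes rose and 0 fell, with a median difference of 1.22, and 27 of the 28 list genes had a probe set. Day 14 was above day 7 for 21 of the 26, against 40.9% of all tested genes. The median day 14 minus day 7 difference of the 26 was 0.29 against -0.05. Past 2-fold higher were 4 of the 26, against 0.574% of all tested genes. Of the 15 that rose, 8 were early, 2 progressive, 2 late and 3 gradual. Without the 14-day array 9 matrix genes rose, and 10 with the same genes tested. Among those not called were Eln, elastin, at 0.95, and the small proteoglycan gene Dcn, which had 11557 and 11402 at day 1, 11432 at day 7 and 12317 at day 14 (0.05).

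**Figure D2:**
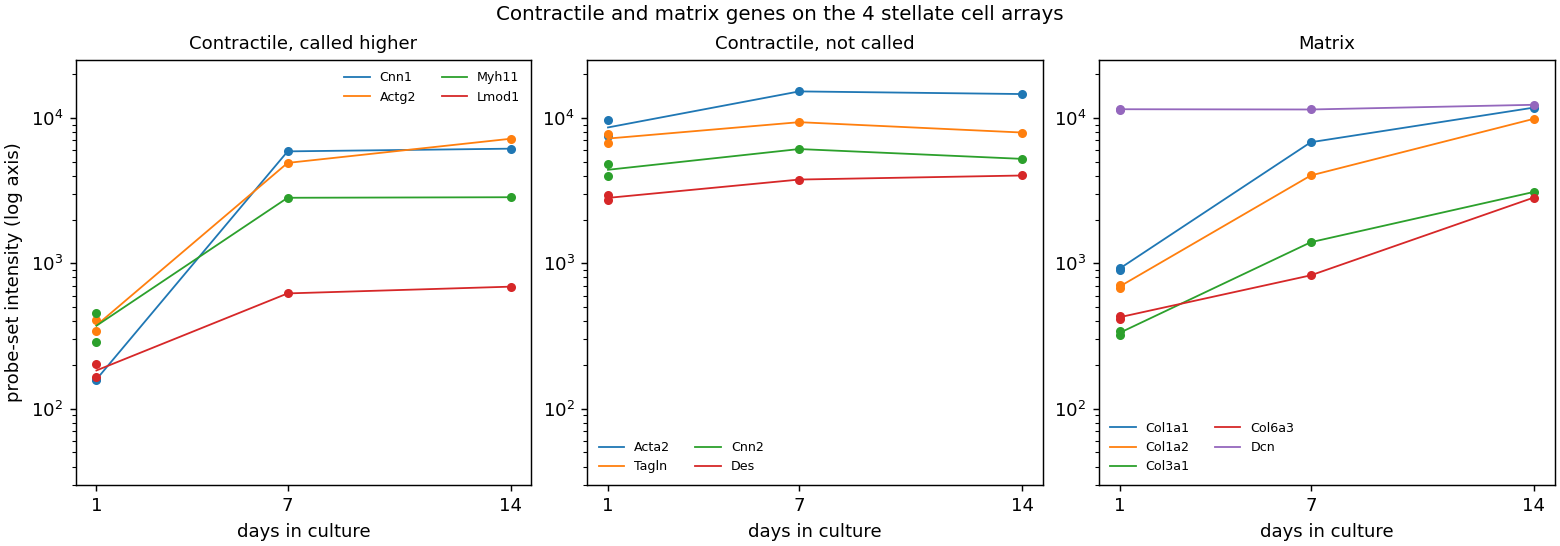
Probe-set intensity (log axis) against days in culture for contractile genes that were called higher (left), contractile genes that were not called (middle) and matrix genes (right). Points are single arrays, with 2 at day 1, and lines join the day 1 mean to day 7 and day 14. Cnn1 lies at 158 and 160.3 at day 1 and at 5888 and 6146 later, Acta2 lies between 7461 and 15224 throughout, and Col1a2 reaches 9861 at day 14.

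Enzymes that process collagen rose with it. Of 18 tested, 10 rose and 0 fell (median 1.18). P4ha3, a subunit of prolyl hydroxylase, which stabilises the collagen helix, had 399 and 295 at day 1, 2361 at day 7 and 3179 at day 14 and rose by 2.73. Pcolce, which speeds procollagen cleavage, rose by 2.21, the procollagen protease gene Bmp1 by 1.89, and Plod2, a lysyl hydroxylase for cross-links, by 1.71. The later arrays were above both day 1 arrays for each of these 4. Lox, which cross-links collagen and elastin, had 5062 and 5068 at day 1, 11655 at day 7 and 11812 at day 14, a difference of 1.20 (SE 0.37, adjusted p = 0.018). Although its groups were far apart, the call was lost when any 1 HSC array was left out, with adjusted p between 0.057 and 0.072. P3h1, a prolyl 3-hydroxylase, was just under the size limit at 0.98.

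Basement membrane genes rose as well, in 7 of 14 tested, with 0 lower and a median of 1.01, and 4 rose with the pooled median as pseudocount. Nid2, which links laminin to type IV collagen, had 423 and 398 at day 1, 5827 at day 7 and 2603 at day 14, a transient rise (3.01) that was highest at day 7. Lama2, a laminin chain of muscle and nerve, had 211 and 265 at day 1, 1601 at day 7 and 1475 at day 14 (2.34), Lamb2 rose by 1.79 and the heparan sulfate proteoglycan gene Hspg2 by 1.61. Both later arrays were above both day 1 arrays for all 14 genes, against 31.7% of all tested genes. Col4a1 of type IV collagen, at 0.82, and Lama1, at 0.91, were not called.

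Of matrix proteases and their inhibitors, 11 of 21 tested rose and 0 fell, with a median of 1.20. Adamts5, an aggrecanase that cuts large proteoglycans, had 152 and 190.4 at day 1, 5864 at day 7 and 3346 at day 14, a difference of 4.16 (SE 0.21, adjusted p = 2.5e-08). It was highest at day 7, and its day 1 intensities were within the range of the sorted means, 92.4 to 191. Adamts12, a related protease, had 708 and 782 at day 1, 4309 at day 7 and 4000.4 at day 14 (2.36). The inhibitor genes Timp1 and Timp2 rose by 1.46 and 2.01: Timp1 had 2794 and 3129 at day 1, 8402 at day 7 and 8138 at day 14, and Timp2 had 1279 and 1382 at day 1, 5347 at day 7 and 5850.4 at day 14. Mmp10, a stromelysin, had 731 and 526 at day 1, 5221 at day 7 and 1403 at day 14 and was transient. It rose by 1.996, and in the fit of the HSC arrays alone its adjusted p was 0.051. Mmp11 at 0.95 and Adamts4 at 0.73 were not called.

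Of the matricellular proteins, which modulate cells from within the matrix, 4 of 13 tested rose and 0 fell (median 0.39). Thbs2, an inhibitor of vessel growth, had 328 and 369 at day 1, 3788 at day 7 and 3953 at day 14 (3.20). The CCN family split: Ccn5 had 384 and 377 at day 1, 3256 at day 7 and 3157 at day 14 and rose by 2.83, with Ccn4 at 1.27 and Ccn3 the other one called, while Ccn2, the connective tissue growth factor and a classical TGF-beta and YAP target, had 18754 and 19321 at day 1, 17892 at day 7 and 15916 at day 14. Ccn2 was bright on all 4 arrays, and its difference of -0.17 did not pass. The same was true of Tnc, tenascin C, with 10915 and 11697 at day 1, 10910.4 at day 7 and 9181 at day 14 (-0.17).

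Genes of TGF-beta, activin and BMP signalling went both ways, with 8 of 30 tested higher (5 without the 14-day array), 3 lower (5 without the 7-day array) and a median of 0.59. On the side of rises, the latent TGF-beta binding proteins Ltbp1 and Ltbp2, which hold the cytokine in the matrix, rose by 1.93 and 1.82. Fst, which encodes the activin antagonist follistatin, had 549 and 490.0 at day 1, 2530.1 at day 7 and 2387 at day 14 (2.08). Grem1, a BMP antagonist, had 163 and 176 at day 1, 380.3 at day 7 and 1402 at day 14 and rose by 1.72, a call lost without the 14-day array, where the difference was 0.88. On the side of falls, Ltbp4 had 1453 and 1993 at day 1, 319 at day 7 and 488 at day 14 (-1.90), and the ligand gene Bmp2 had 1553 and 1816 at day 1, 393 at day 7 and 113 at day 14 (-2.53) and was progressive. Bmp2 was highest in LSEC (mean 3441), and markers of LSEC also fell (16 of 28 tested), whose part in the fall of Bmp2 was not tested. Bmp10 and Bmp5 had another time course. Bmp10 had 2852 and 5207 at day 1, 3712 at day 7 and 457 at day 14, and Bmp5 had 2147 and 1882 at day 1, 2019 at day 7 and 294 at day 14. Both were low at day 14 alone, and neither was called, with adjusted p = 0.063 and 0.069. Without the 7-day array their differences were -2.87 and -2.47 and both were called.

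Of growth factors and their receptors, 7 of 24 tested rose and 1 fell (median 0.24). The 1 fall was near the share over all tested genes, 4.27%. Leaving out the 7-day array or the 14-day array left 4 that rose, but 6 in each case with the same genes tested. Vegfd, a growth factor for lymphatic vessels, had 163 and 152 at day 1, 4395 at day 7 and 3032 at day 14, a rise of 3.96. Hbegf, an EGF receptor ligand, had 815 and 639.9 at day 1, 4916 at day 7 and 5095 at day 14 (2.66), Igfbp3, which binds insulin-like growth factors, rose by 2.63, and the PDGF receptor ligand Pdgfd had 149.8 and 109 at day 1, 1173 at day 7 and 1003 at day 14 (2.46). These 4 were all past their step by day 7. The receptor gene Pdgfrb, given above, differed by 0.67 and was not called. Hgf, the hepatocyte growth factor that stellate cells supply to hepatocytes, had 1196 and 1479 at day 1, 705 at day 7 and 202 at day 14 and was called lower (-1.58, adjusted p = 0.038). That call was lost without the 14-day array (-0.84) and without either day 1 array (adjusted p = 0.083 and 0.16), and the second hepatocyte array also decided it (0.051).

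Of the targets of YAP, the coactivator that responds to stiffness, 5 of 22 tested rose and 0 fell (median 0.38). With the pooled median as pseudocount 2 rose, without the 7-day array or the first day 1 array 3 rose, and without the 7-day array 4 fell. Myof, F3, Nuak2 and Dock5 rose by 1.31, 1.12, 1.05 and 1.05, but the call of Nuak2 was lost without the 7-day array (0.81) or the first day 1 array (0.97), and that of Dock5 without the second day 1 array (0.98). Ankrd1, a YAP target of muscle, had 11897 and 12128 at day 1, 8039.9 at day 7 and 5817 at day 14 and was not called (-0.81). In 7 of the 17 uncalled targets the day 1 mean was past 2-fold above the highest sorted mean, against 1.83% of uncalled genes overall. The same held for 1 of the 5 that rose, against 8.64% of all genes that rose. Whether these targets rose before day 1 was not tested. Hedgehog and Wnt genes had 6 of 21 tested higher (2 without the 14-day array, 4 with the same genes tested) and 3 lower (median 0.31). Dkk3, a Dickkopf family gene, had 124 and 122 at day 1, 539 at day 7 and 1151 at day 14 (2.09), and the Wnt receptor gene Fzd7 had 431 and 445 at day 1, 1265 at day 7 and 1526 at day 14 and rose too. Hhip, an inhibitor of hedgehog ligands, had 591 and 880.1 at day 1, 152 at day 7 and 62.2 at day 14 (-2.13), and Rspo3, an enhancer of Wnt signalling, had 1976 and 3177 at day 1, 1097 at day 7 and 709 at day 14 (-1.42). Both were lower on each later array than on either day 1 array.

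**Figure D3:**
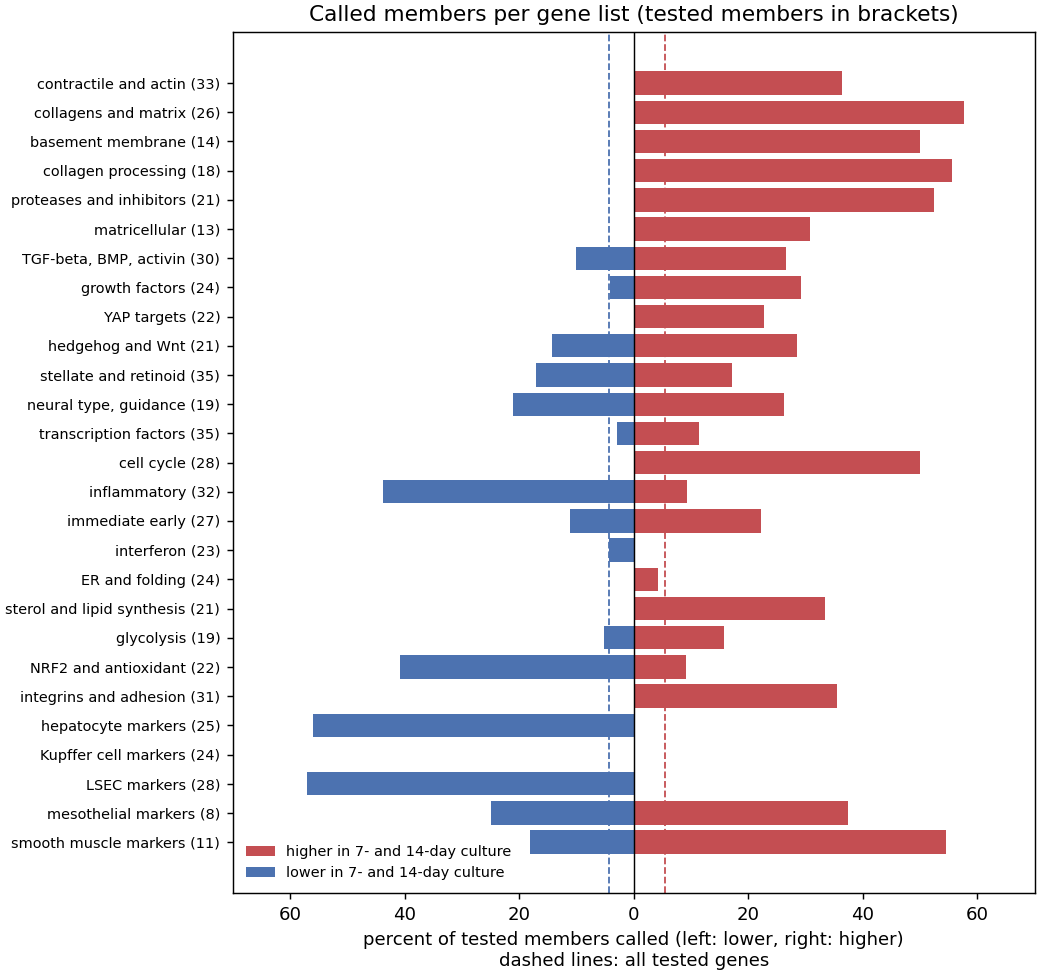
Percent of tested members of each gene list that were called lower (left) or higher (right) in long-cultured against 1-day HSC, with the number tested in brackets. Dashed lines give the shares over all tested genes, 4.27% lower and 5.52% higher. Matrix lists lie on the right alone, hepatocyte and LSEC markers on the left alone, and Kupffer cell markers have 0 calls.

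Genes of the quiescent stellate state and of retinoid handling split, with 6 of 35 tested higher (3 without the 7-day array, 4 with the same genes tested) and 6 lower, and a median of 0.01. The retinoid enzymes were among those that rose. Aldh1a1, which makes retinoic acid from retinaldehyde, had 806 and 870.4 at day 1, 6779 at day 7 and 4579 at day 14 (2.62). Dhrs3, which turns retinaldehyde back into retinol, had 590.5 and 718 at day 1, 3909 at day 7 and 4459 at day 14 (2.54), and the retinoic acid receptor gene Rarb had 671 and 619 at day 1, 4179 at day 7 and 2057 at day 14 (2.05). A pair of retinoic acid-linked genes was transient. Cyp26b1, which degrades retinoic acid, had 239.6 and 219 at day 1, 1816 at day 7 and 473 at day 14, and Crabp1, a cytoplasmic carrier of retinoic acid, had 253 and 247 at day 1, 2040.5 at day 7 and 332 at day 14. Only the 7-day array was high for Crabp1. Their calls (1.72 and 1.49) were lost without it, where the differences were 0.83 and 0.32. The second day 1 array also decided the call of Cyp26b1 (adjusted p = 0.065 without it), and either day 1 array that of Crabp1 (0.080 and 0.091). Lrat, which makes the retinyl esters for storage, had 257 and 353 at day 1, 705 at day 7 and 457 at day 14 and was not called (0.76), although without the 14-day array the difference was 1.03 and passed. Hsd11b1, which activates glucocorticoids and is high in hepatocytes (mean 3216), had 335 and 445 at day 1, 1976 at day 7 and 223 at day 14 and was not called (0.76).

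The members that fell were led by receptors and secreted factors. Reln, the secreted glycoprotein reelin, had 4331 and 4597 at day 1, 2270.0 at day 7 and 277 at day 14, a difference of -2.30 (SE 0.56, adjusted p = 0.0048). It was in between at day 7, and at day 14 it came nearest to the sorted cells, whose means were 159 to 193. Without the 14-day array its difference was -0.95 and it was not called, and in the fit of the HSC arrays alone its adjusted p was 0.089. Cxcl12, the chemokine that retains CXCR4-bearing cells, had 8069 and 7495 at day 1, 1420.4 at day 7 and 878 at day 14 (-2.71), with sorted means of 151 to 221. Rgs5, given above, fell by day 7 (-2.11), as did Vipr1, a receptor for vasoactive intestinal peptide, with 680.2 and 885 at day 1, 178 at day 7 and 128 at day 14 (-1.87). For 5 of the 6 members that fell, the day 1 mean was past 2-fold above the highest sorted mean, against 10.2% of all genes that fell. The exception was Rbp4, the plasma retinol carrier made by hepatocytes (mean 14172), with 1636 and 589 at day 1, 105 at day 7 and 108 at day 14.

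By distance over the 4 HSC arrays, with log2 values centred on the day 1 mean, the genes most like Reln were Tlcd4 (0.46), Calcrl (0.998), Bmp2 (1.06), Sema6d (1.14) and Rerg (1.17). Tlcd4 had 3951 and 4015 at day 1, 1950.1 at day 7 and 357 at day 14, a late fall like that of Reln. Its call was also lost without the 14-day array, at -0.9999 and adjusted p = 0.014, just under the size limit. Those most like Cnn1 were Adamts5 (0.94), the hyaluronan-degrading Cemip (0.96), Vegfd (1.07), S100a6 (1.10) and Ogn (1.31). Ogn, a small leucine-rich proteoglycan, had 169 and 152 at day 1, 2949 at day 7 and 3379 at day 14. These lists describe 4 arrays and carry no test.

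Axon guidance genes showed opposite movement of ligands and of a receptor. Slit3 and Slit2, secreted ligands of Robo receptors, had 344 and 336 at day 1, 3408 at day 7 and 5627 at day 14 for Slit3 and 175 and 152 at day 1, 1287 at day 7 and 2416 at day 14 for Slit2, with rises of 3.40 and 2.91. Robo2, one of their receptors, had 5551 and 6210.1 at day 1, 1051 at day 7 and 352 at day 14, a progressive fall (-3.08). Its relative Robo1 had 890.4 and 967 at day 1, 1468 at day 7 and 703 at day 14 and was not called (0.13). Of 19 tested genes of neural type, 5 rose and 4 fell, with a median of -0.01. Without the 7-day array 3 rose and without the 14-day array 2, but 6 and 5 with the same genes tested, and without the second day 1 array 2 fell, or 3 with the same genes tested. Ncam1, an adhesion molecule of nerve and activated stellate cells, had 579 and 564 at day 1, 2036 at day 7 and 4216 at day 14 (2.21). Another receptor with a progressive fall was S1pr3, for sphingosine 1-phosphate, with 6729 and 7995 at day 1, 1070.3 at day 7 and 233 at day 14 (-3.62). Serpinb2, an inhibitor of plasminogen activators, had 4962 and 5941 at day 1, 959.5 at day 7 and 394 at day 14 (-2.97). Of transcription factors of mesenchyme and stellate cells, 4 of 35 tested rose and 1 fell (median 0.05). Over all tested genes 5.52% rose and 4.27% fell, so the 1 fall was near its share. Without the 7-day array 2 rose and 4 fell, with the pooled median as pseudocount 2 rose and 0 fell, and 0 fell without the 14-day array or the second day 1 array. Prrx1, a homeobox factor of fibroblasts, had 690.2 and 698 at day 1, 3408 at day 7 and 4078 at day 14 (2.29), and the nuclear receptor gene Nr4a1 had 844 and 834 at day 1, 3442 at day 7 and 3684 at day 14 (1.98).

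Some genes were distinct at day 14, and since this rests on 1 array at each time, the values carry no test. The widest loss against day 7 was that of Plvap, a protein of endothelial fenestrae, with 2149 and 2293 at day 1, 3352 at day 7 and 403 at day 14, a day 14 minus day 7 log2 difference of -2.82. The brackets that follow here give that same difference. Bmp10 (-2.81), Hsd11b1 (-2.75), Reln (-2.71), the chemokine gene Cxcl14 (-2.55), Bmp5 (-2.48), Crabp1 (-2.36) and Tlcd4 (-2.21) followed. Cxcl14 had 1618 and 1741 at day 1, 2662 at day 7 and 387 at day 14, so that like Plvap it was highest at day 7 and lowest at day 14. For Plvap, Bmp10, Reln, Cxcl14 and Bmp5 the day 1 arrays were above the mean of each sorted population. The widest gain was that of Sparcl1, a matricellular relative of SPARC, with 527 and 623 at day 1, 207 at day 7 and 1573 at day 14 (2.51). Its difference over the pooled later arrays was 0.08, since it was below day 1 at day 7 and above it at day 14. Angptl7, an angiopoietin-like gene, had 90.1 and 104 at day 1, 172 at day 7 and 1264 at day 14 (2.40), and Mgp, an inhibitor of calcification, had 259.9 and 297 at day 1, 292 at day 7 and 1753 at day 14 (2.29). Serpina3n (2.23), Shisa3 (2.06), Nrn1 (1.87), Grem1 (1.68) and Col6a3 (1.68) completed the 8 largest gains. The call of Angptl7 over both later arrays was lost without the 14-day array (0.50) or either day 1 array (adjusted p = 0.060 and 0.051), and that of Nrn1 under 18 of 24 alternatives, among them leaving out the 14-day array (0.19). Small structural RNAs such as snoRNAs moved with day 14: 38 of 44 tested were above day 7, against 40.9% of all tested genes, with a median difference of 0.53, and they made up 11 of the 71 genes past 2-fold higher. Their part in the other day 14 values was not tested.

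**Figure D4:**
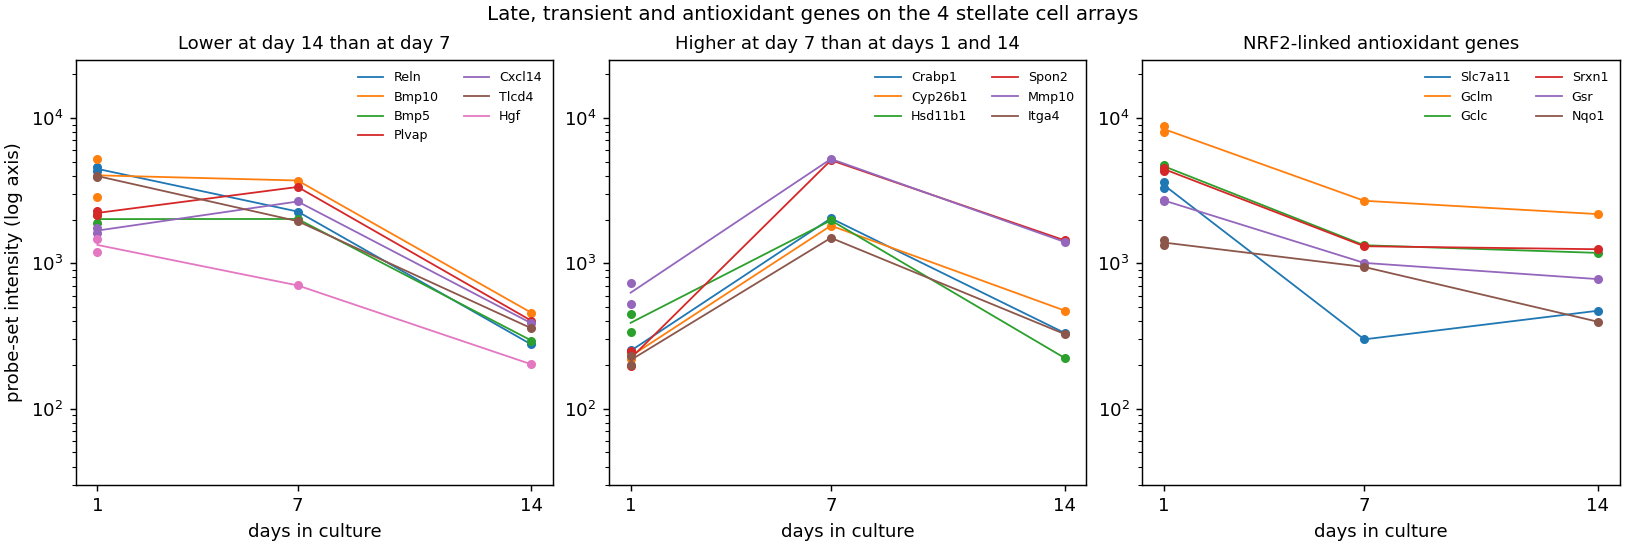
Probe-set intensity (log axis) against days in culture for genes lower at day 14 than at day 7 (left), genes higher at day 7 than at days 1 and 14 (middle) and NRF2-linked antioxidant genes (right). Points are single arrays, and lines join the day 1 mean to day 7 and day 14. Reln and Plvap end at 277 and 403, Crabp1 peaks at day 7, and Slc7a11 is at 299.9 there.

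Of the 36 rises classed as transient, 20 were back within 2-fold of the day 1 mean at day 14 and 16 were still above it. Spon2, a secreted matrix protein, had 196 and 249 at day 1, 5120.4 at day 7 and 1439 at day 14, a rise of 3.21, and was still above day 1 at day 14. Susd2 (509 and 711 at day 1, 3166 at day 7 and 699 at day 14), the integrin subunit gene Itga4 (201 and 231 at day 1, 1497 at day 7 and 326 at day 14) and the tubulin gene Tubb4a (128 and 154 at day 1, 1113 at day 7 and 226 at day 14) were highest at day 7. In the fit of the HSC arrays alone the calls of these 3 were lost, with adjusted p of 0.20, 0.13 and 0.13. Without the 7-day array Susd2 differed by 0.19, Itga4 by 0.45 and, with the same genes tested, Tubb4a by 0.47, and none was called, and without the first day 1 array the adjusted p was 0.18 for Susd2, 0.059 for Itga4 and 0.058 for Tubb4a. Among the progressive rises, Srpx, a secreted sushi-domain protein, had 71.4 and 68.8 at day 1, 464 at day 7 and 1469.9 at day 14 (2.59), and Vldlr, a lipoprotein receptor, had 183 and 297 at day 1, 652 at day 7 and 1991 at day 14 (1.96).

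Many cell cycle genes rose by day 7, and nearly all were lower at day 14 than at day 7, mostly by less than 2-fold. Of 28 tested, 14 rose and 0 fell, the median was 1.01, and the median day 7 minus day 1 difference was 1.44 against -0.03 over all tested genes. Ccna2, cyclin A2, had 121 and 142 at day 1, 1536 at day 7 and 779.6 at day 14 (2.46), and Cdk1, the kinase of mitotic entry, had 167 and 193 at day 1, 1449 at day 7 and 1077 at day 14 (2.34). Mki67, the proliferation marker, had 118 and 143 at day 1, 1146 at day 7 and 648 at day 14 (2.15), and Bub1, a kinase of the spindle checkpoint, had 41.7 and 38.7 at day 1, 634 at day 7 and 299 at day 14 (2.09). For each of these 4 genes the order was day 7, then day 14, then both day 1 arrays. Day 14 was below day 7 for 27 of the 28, against 59.1% of all tested genes, with a median day 14 minus day 7 difference of -0.69. Past 2-fold lower was 1 of the 28, against 0.986% of all tested genes. Of the 14 that rose, 13 were classed early, with no step past the limit after day 7, and 1 transient. Each later time is 1 array, so this decline carries no test. The member above day 7 at day 14 was Ccnd1, cyclin D1, with 2084 and 1725 at day 1, 3091 at day 7 and 4066 at day 14, which was not called (0.87). Anln, which organises the cleavage furrow, was among the 15 largest rises, with 112 and 124 at day 1, 2526 at day 7 and 1591 at day 14 (3.38). Of genes of cell cycle arrest and senescence, 3 of 15 tested rose, of which Igfbp3 and Il6 are secreted factors and Glb1 a lysosomal galactosidase, and 1 fell (0 without the 14-day array). Glb1 was close to the size limit (1.025). It fell under that limit without the first day 1 array (0.991) and with the pooled median as pseudocount (0.88). Cdkn2b, an inhibitor of CDK4 and CDK6, had 336 and 361 at day 1, 674 at day 7 and 744 at day 14 and was not called (0.87). Over all settings 7 to 17 cell cycle genes rose, with 7 when the 7-day array was left out and 11 then with the same genes tested.

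The CHR element TTTGAA, bound by the MuvB complex at late cell cycle genes, is shown for Cdk1 and Mki67 because their intensities follow this course. It occurred in 10 of 25 list windows (40%), against 17.9% of all windows, on either strand. The stretches are on the minus strand at chr10:69352913-69352967 for Cdk1 and chr7:135716432-135716535 for Mki67, from RefSeq and GRCm38.p6, with the motif in capitals.
Cdk1: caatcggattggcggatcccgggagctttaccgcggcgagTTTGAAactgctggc
Mki67: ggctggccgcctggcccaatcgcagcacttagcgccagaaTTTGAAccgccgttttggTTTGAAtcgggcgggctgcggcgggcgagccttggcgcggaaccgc
Of the 10 genes with the motif, 6 rose (Ccnb2, Cdk1, Kif11, Mki67, Plk1 and Top2a) and Aurka, Bub1b, Cdc20 and Mcm2 were not called.

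Chemokine and inflammatory genes fell more often than they rose in long culture: 14 of 32 tested fell and 3 rose, with a median of -0.69, and 32 of 37 with a probe set passed the filter. Cxcl2, a neutrophil chemokine, had 2221 and 2118 at day 1, 59.8 at day 7 and 59.9 at day 14 (-3.98). Ccl5, which attracts T cells, had 1940.2 and 2306 at day 1, 248 at day 7 and 306 at day 14 (-2.62), and Cxcl12, given above, fell by day 7. Lcn2, a siderophore-binding protein of the acute phase, had 3993 and 1567 at day 1, 1263 at day 7 and 273 at day 14 (-1.90), a call lost without the 14-day array (-0.95, adjusted p = 0.054) and without the first day 1 array (adjusted p = 0.076), and in the fit of the HSC arrays alone (0.098). The remaining falls, from -1.90 for the chemokine gene Cxcl16 to -1.05 for Tnfrsf11b, included the monocyte chemokines Ccl2 and Ccl7 and the cytokines Il1a, Il11 and Il33. Without the second day 1 array Ccl2, Ccl7 and Tnfrsf11b differed by -0.95, -0.93 and -0.98, and none of the 3 was then called. The same was true of Il11 without the first day 1 array (-0.87), and of Ccl7 (-0.87) and Tnfrsf11b (-0.73) without the 14-day array. Cells other than HSC held more of several of these RNAs: Cxcl2 and Ccl5 were highest in Kupffer cells (means 6618 and 3728), and Lcn2 in hepatocytes (14334), while Cxcl12 was highest on the day 1 HSC arrays. The summed intensity of 24 Kupffer cell markers was 15460 and 20000 at day 1, 10490 at day 7 and 19940 at day 14, and its part in these falls was not tested. In the other direction, Il6, a cytokine of the acute phase, had 138 and 219 at day 1, 1401 at day 7 and 1017 at day 14 (2.31), its relative Lif had 264 and 257 at day 1, 1441 at day 7 and 515 at day 14 (1.47), and the adhesion molecule gene Vcam1 differed by 1.05. The call of Lif was lost without the 7-day array (0.80), and that of Vcam1 without the 14-day array (0.92) or the first day 1 array (0.96). Ptgs2, the inducible cyclooxygenase, had 7876 and 7657 at day 1, 13292 at day 7 and 13618 at day 14 and was not called (0.79).

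NF-kB is a common activator of these genes, and its sites are shown because genes that carry them fell and rose alike. A site occurred in 9 of 30 list windows (30%), against 8.46% of all windows, searched on both strands. Of the genes with a site, Cxcl1, Cxcl2 and Nfkbia fell, Il6 and Lif rose, and Cxcl10 and Tnfaip3 were not called. Ccl20 and Cxcl3 did not pass the filter. Cxcl1, the neighbour and close relative of Cxcl2, had 1027 and 2550.0 at day 1, 454 at day 7 and 353 at day 14 (-1.82). Sites are in capitals, on the plus strand at chr5:90903762-90903852 for Cxcl2, chr5:90891134-90891224 for Cxcl1 and chr5:30013030-30013113 for Il6.
Cxcl2: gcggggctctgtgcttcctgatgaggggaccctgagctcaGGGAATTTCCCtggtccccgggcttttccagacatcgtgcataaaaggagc
Cxcl1: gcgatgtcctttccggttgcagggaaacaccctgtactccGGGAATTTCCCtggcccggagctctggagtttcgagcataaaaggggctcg
Il6: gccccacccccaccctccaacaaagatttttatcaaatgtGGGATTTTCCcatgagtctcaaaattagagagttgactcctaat
In these windows Cxcl1 and Cxcl2 carry the same letters in capitals, and Il6 carries another form.

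Antioxidant genes linked to NRF2, the factor that raises glutathione synthesis under oxidative stress, fell more often than they rose. Of 22 tested, 9 fell and 2 rose, with a median of -0.53. Slc7a11, the cystine importer, had 3599.7 and 3308 at day 1, 299.9 at day 7 and 472 at day 14 (-2.94, SE 0.7, adjusted p = 0.0043). Gclc and Gclm, the subunits of the enzyme that starts glutathione synthesis, had 4723 and 4586 at day 1, 1332 at day 7 and 1179.6 at day 14 for Gclc and 7972 and 8797 at day 1, 2693 at day 7 and 2180.0 at day 14 for Gclm, with differences of -1.83 and -1.75. Both later arrays of all 3 were below both day 1 arrays. Srxn1, Gsta4, Gsr, Cat and Sod2 fell by 1.73, 1.63, 1.53, 1.22 and 1.08 on the log2 scale, and Sod2 was not called without the second day 1 array (-0.92). Nqo1 had 1337 and 1442 at day 1, 944 at day 7 and 396 at day 14 (-1.07, adjusted p = 0.042), a call lost without the 14-day array (-0.52), either day 1 array (0.10 and 0.15 as adjusted p) and most single sorted arrays (0.051 to 0.056). Slc7a11, Gclm and Nqo1 were highest on the day 1 HSC arrays, and the others in hepatocytes, whose 25 markers summed to 31830 and 16890 at day 1, 5434 at day 7 and 5159 at day 14. Heme oxygenase Hmox1 had 9201 and 10051 at day 1, 6583 at day 7 and 4515 at day 14 and was not called (-0.81). The genes that rose were the glutathione peroxidases Gpx3, with 479 and 426 at day 1, 4110.2 at day 7 and 4074 at day 14 (2.97), and Gpx1 (1.31), the second of which was not called without the second day 1 array (0.96).

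The antioxidant response core TGACNNNGC was searched on both strands of the promoter windows and occurred in 7 of 24 list windows (29.2%), against 12.4% of all windows. Of the genes with it, Gclm and Srxn1 fell, and Me1, Mt2, Prdx1 and Txnrd1 were not called, and G6pdx was not tested. The Gclm stretch, at chr3:122245383-122245471 on the plus strand, is shown with the match, which lies on the opposite strand, in capitals.
Gclm: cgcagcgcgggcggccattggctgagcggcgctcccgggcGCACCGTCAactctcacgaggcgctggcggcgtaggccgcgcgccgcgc
The element is a consensus core, and a match does not show that NRF2 binds there.

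Sterol and fatty acid synthesis genes rose in 7 of 21 tested (4 without the second day 1 array), with 0 lower and a median of 0.57. Scd2, a fatty acid desaturase, had 707 and 435 at day 1, 2010.2 at day 7 and 3289 at day 14 (2.05), and the sterol pathway enzymes Idi1, Cyp51 and Fdps rose by 1.57, 1.38 and 1.36. For each the later arrays were above both day 1 arrays. Glycolysis genes rose in 3 of 19 tested and fell in 1. Pfkfb4, which sets the pace of glycolysis, had 193 and 199.5 at day 1, 658 at day 7 and 711 at day 14 (1.46), and the lactate transporter gene Slc16a1 had 1583 and 1701 at day 1, 495 at day 7 and 645 at day 14 (-1.41). Of genes for secretory folding and the unfolded protein response, 1 of 24 rose and 0 fell: Sec23a, a coat protein of vesicles that carry collagen, with 1441 and 1337 at day 1, 2977 at day 7 and 3904 at day 14 (1.25). Interferon response genes had 0 higher and 1 lower of 23 tested (Rsad2, -1.34, which was at -0.99 and not called with the pooled median as pseudocount). Counts of the folding and interferon lists were near or below the shares over all tested genes, 5.52% higher and 4.27% lower. The 1 fall among glycolysis genes was also near its share. Immediate early genes, which respond within minutes to serum and handling, had 6 of 27 higher (3 with the pooled median as pseudocount) and 3 lower. Fosb had 583 and 663 at day 1, 3669 at day 7 and 2544 at day 14 (2.15), and Myc had 7877 and 8327 at day 1, 3621 at day 7 and 1914 at day 14 (-1.59).

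Adhesion genes rose in 11 of 31 tested, with 0 lower and a median of 0.62. Thy1, a surface glycoprotein of fibroblasts, had 244 and 202 at day 1, 2026 at day 7 and 2352 at day 14 (2.89). The collagen-binding integrin subunit gene Itga11 had 182 and 186 at day 1, 1243 at day 7 and 1141 at day 14 (2.25), and Cdh11, the cadherin of mesenchyme, had 352 and 396 at day 1, 1527 at day 7 and 2858 at day 14 (2.25). Later arrays stood clear of day 1 for all 3. Among hyaluronan genes 3 of 8 tested rose: Cemip with 226 and 253 at day 1, 4823 at day 7 and 5204 at day 14 (3.98), the synthase gene Has2 with 268 and 221 at day 1, 1915 at day 7 and 2446 at day 14 (2.78), and Tnfaip6 (1.14), whose call was lost without the 7-day array (0.83). The calcium-binding S100 proteins rose in 3 of 7 tested, with S100a6 at 265 and 249.7 at day 1, 4076 at day 7 and 6455 at day 14 (3.94) and S100a4, a fibroblast marker, at 105 and 97.8 at day 1, 1049 at day 7 and 1169 at day 14 (2.69). Other rises among the 15 largest were Lurap1l (3.64), Tmem45a (3.60) and Cpe (3.33), the prohormone-processing carboxypeptidase E. Genes counted as portal fibroblast markers overlapped with these, and 3 of 10 tested rose (Thy1, Fbln2 at 2.77 and Mfap5 at 1.90) while Dpt fell (728 and 1058 at day 1, 149.7 at day 7 and 51.9 at day 14, -2.44). Their summed intensity was 5020.0 and 5631 at day 1, 15800 at day 7 and 21070 at day 14, and the part of portal fibroblasts in these rises was not tested.

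A share of the genes that fell were those of other liver cells. Alb, albumin, had 8855 and 6285 at day 1, 114 at day 7 and 113 at day 14, the widest fall (-5.26), against a mean of 18570 in hepatocytes. Of 25 hepatocyte markers tested, 14 fell and 0 rose (median -1.41), and their sum, given above, compared with 254000 to 273800 in sorted hepatocytes. The first day 1 array had the higher sum of the pair. Cdh5, the adherens junction cadherin of endothelium, had 6552 and 5427 at day 1, 237 at day 7 and 422 at day 14 (-3.91), against means of 13861 in LSEC and 9635 in Kupffer cells. Of 28 LSEC markers tested, 16 fell (10 with the pooled median as pseudocount) and 0 rose (median -1.13), with sums of 32350 and 30750 at day 1, 14380 at day 7 and 11740 at day 14, against 103300 to 152400 in sorted LSEC. Of 24 Kupffer cell markers 0 were called in either direction, although 4 fell without the 14-day array, and their sum on the HSC arrays compared with 202300 to 204800 in sorted Kupffer cells. Their lowest level was at day 7: day 14 was above day 7 for 21 of 24, against 40.9% of all tested genes, with a median difference of 0.59. Lyz2, a macrophage lysozyme, had 2916 and 3850.3 at day 1, 2499.6 at day 7 and 5602 at day 14. No marker of these lists was listed at 0, since the lowest intensity of any probe set was 10.6. In bulk RNA, fewer cells of a type and less RNA per cell cannot be told apart.

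**Figure D5:**
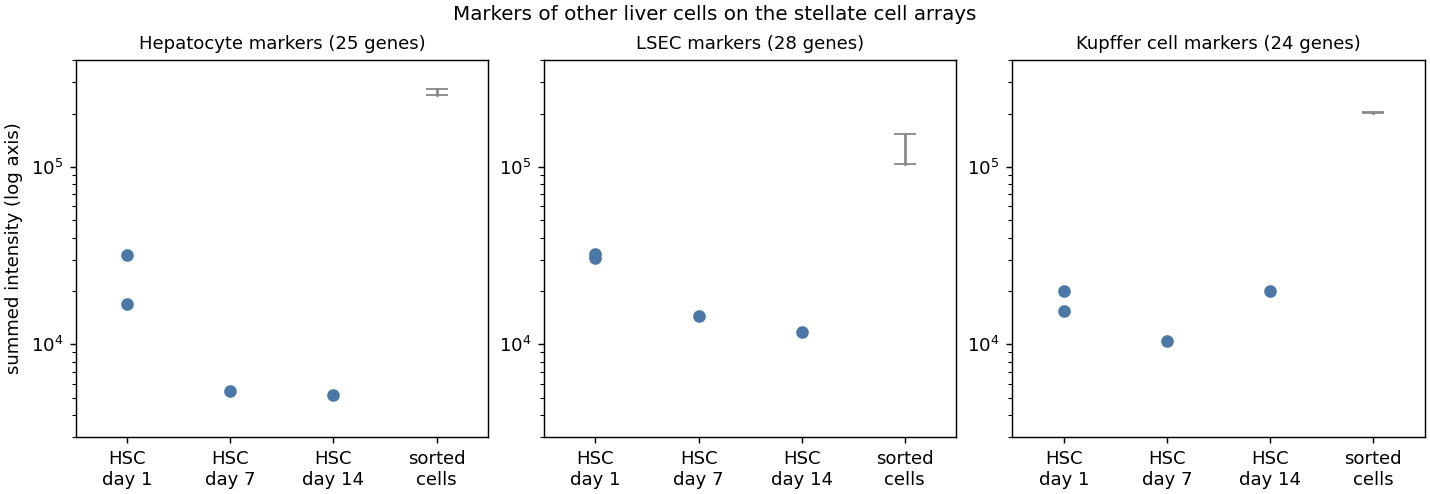
Summed intensity (log axis) of hepatocyte, LSEC and Kupffer cell markers on each HSC array (points) and, as a bar from the lowest to the highest of 3 arrays, in the sorted cells of that type. Hepatocyte sums are 31830 and 16890 at day 1 and 5159 at day 14, LSEC sums are 32350 and 30750 at day 1 and 11740 at day 14, and the Kupffer sum at day 14, 19940, is within the day 1 range.

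Of the 528 genes that fell, 247 (46.8%) were higher on both day 1 HSC arrays than in each sorted mean, against 19.9% of all tested genes. Another 98 were highest in hepatocytes (18.6%), 90 in LSEC (17%) and 65 in Kupffer cells (12.3%), and 28 lay between the day 1 arrays. Falls were called on the same day 1 arrays, so the excess over 19.9% follows in part from the choice. Of the 683 genes that rose, 196 (28.7%) were also higher on both day 1 HSC arrays than in each sorted mean. For the genes that fell, the median day 7 minus day 1 difference was -1.14 for the 247 and -1.24 for the other 281. Among the falls highest in sorted cells were Prg4, lubricin, with 3116 and 2537 at day 1, 73.2 at day 7 and 213 at day 14 (-3.75), the endothelial adhesion receptor gene Adgrl4 (-3.69), Car8 (-3.02), and the antigen presentation gene Cd74 (-3.36), with a mean of 13199 in Kupffer cells. The part of other cells in each fall was not tested. Mesothelial markers went both ways, with 3 of 8 tested higher and 2 lower: Upk1b, a uroplakin of mesothelium, had 107 and 184 at day 1, 306 at day 7 and 899 at day 14 (1.46), Lrrn4 rose by 1.05, and the keratin gene Krt8 had 2140.0 and 1029 at day 1, 553 at day 7 and 399.8 at day 14 (-1.50). Without the 14-day array 0 mesothelial markers rose and 1 fell, also with the same genes tested (Upk1b 0.79 and Lrrn4 0.49), and without the first day 1 array, or with the pooled median as pseudocount, 1 rose and 1 fell. In the fit without the 7-day array 1 rose, or 4 with the same genes tested. The other member that fell was the keratin gene Krt18 (-1.09). Sums of the list were 4562 and 2995 at day 1, 3346 at day 7 and 4743 at day 14. In sorted hepatocytes the same sum was 34040 to 35450, so the list does not stand for mesothelium alone. The part of hepatocytes in these falls and sums was not tested. In the fit of the HSC arrays alone the calls of Upk1b and Lrrn4 were lost, with adjusted p of 0.058 and 0.078, and Lrrn4 was not called without the first day 1 array (0.97). Few genes of T and NK, B, and myeloid cell lists passed the filter (4, 5 and 4), and among them Ccl5 alone was called.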

How the data were processed

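RNA purified by phenol and chloroform was turned into biotinylated cRNA, per the labels' protocols. The authors deposited 1 table of probe-set intensity values on a linear scale for 13 arrays. Per the submitters' processing notes, Affymetrix Expression Console and MAS5 5.0 were used, with no role or order given, and the summary method, background correction and scaling are not given in the sources used here. Common scaling was visible in array medians of 216.5 to 232.9. No detection calls were used, and the number of arrays limits the precision. All 13 value columns were used.

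Of 25194 probe sets, 21181 had 1 gene symbol in GEO's platform annotation (1379 had several and 2634 none), and 21097 of these matched RefSeq by gene ID. For each of 19537 genes the probe set with the highest mean was kept, and the 12368 genes above the pooled median (224.5) on at least 2 arrays were tested. Values were used as log2(intensity + 83). A limma fit (version 3.58.1, R 4.3.3) of all arrays in 5 groups, with day 7 and day 14 as 1 group, gave moderated tests with 8 residual degrees of freedom, two-sided, with Benjamini-Hochberg adjustment over all tested genes. It was tested on simulated data. The HSC arrays alone, the pseudocount, quantile normalization, the filter, the choice of probe set, 6 groups, another eBayes setting and leaving out each array were tried as alternatives, with leaving out each HSC array at a fixed set of genes added after seeing the data. Classes of time course and single-array differences carry no test. Levels were set only against the same probe set on other arrays.

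The members, gene lists and tests were chosen with earlier results of these data known. The rule named 16 anchor genes (1 is not reported here), the 15 largest rises and falls, from each list up to 4 called and 2 uncalled genes by size, from the progressive, transient and late classes up to 8 called genes, the 8 largest differences each way between day 14 and day 7, and the 5 genes most like Cnn1 or Reln. Outside this rule and chosen after their values were seen were Abcc9, Ankrd1, Aurka, Bub1b, Cat, Cav1, Ccl2, Ccl7, Ccn2, Ccnb2, Cdc20, Cnn2, Cxcl1, Cxcl10, Cxcl16, Dcn, Fhl2, Gpx1, Gsr, Gsta4, Hgf, Il11, Il1a, Il33, Kif11, Ldb3, Lif, Lmod1, Ltbp2, Lyz2, Mcm2, Me1, Mt2, Myh10, Myl6, Myl9, Ncam1, Nfkbia, Nqo1, Plk1, Prdx1, Ptgs2, Rarb, Rgs4, Robo1, Sod2, Srf, Srxn1, Tnfaip3, Tnfrsf11b, Top2a, Tpm2, Txnrd1, Vcam1, Vcl and Vipr1. Among these, Myl9, Vcl and Cxcl1 are also shown with a sequence, against the rule that kept sequences to genes it named.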

Additional observations from a re-analysis of the deposited data

Results flagged for a closer look

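The 4013 probe sets that carry several gene symbols or none took no part in the comparisons. Of these, 48 were at least 2-fold above the day 1 mean at both day 7 and day 14, and 67 were at least 2-fold below it at both times. They stand here because they lie outside the main measurement. Each later time is 1 array, and no test was run on them.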

How the results depend on the processing

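The number of arrays limits the precision, since the 7-day and 14-day states rest on 1 array each. Over the arrays left out in turn, 560 to 718 genes were called higher and 461 to 696 lower. With the same genes tested whichever HSC array was left out, chosen after seeing the data, the ranges were 654 to 743 and 461 to 696. The HSC arrays alone gave 653 and 496, and quantile normalization 708 and 495. With the pooled median as pseudocount 484 were called higher and 324 lower. That constant, by construction, shrinks the differences of dim genes, and it also left 12 progressive genes, 45 genes past 2-fold higher at day 14 than at day 7, and 272 and 432 past 2-fold lower than day 1 at day 7 and day 14. With steps of 1.5-fold as the limit, the called genes held 125 progressive, 124 transient, 12 late and 0 gradual ones. With a limit of 1.5 on the log2 scale they held 462 early, 2 progressive, 13 transient and 8 late ones. In a fit with 6 groups, 743 and 461 genes were called higher and lower at day 7 than at day 1, 676 and 696 at day 14 than at day 1, and 52 and 92 at day 14 than at day 7. Of 278 genes named by the rule or in the text, 176 were called, and 42 of these lost the call under at least 1 alternative: 21 without the 14-day array, 11 without the 7-day array, 29 without a day 1 array, 18 with the HSC arrays alone and 17 with the larger pseudocount. Sparcl1, at 0.08 over both later arrays, was at -1.18 without the 14-day array and at 1.34 without the 7-day array, as its opposite values at day 7 and day 14 require. The median of all tested genes stayed between -0.0669 and -0.00176 under every alternative. No paired analysis was possible because the 7-day and 14-day titles carry no replicate number.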

Other observations

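Serpina3n, a protease inhibitor of the acute phase, had 1229 and 802 at day 1, 273 at day 7 and 1589.7 at day 14, so that day 7 was low and day 14 was above both day 1 arrays, and it was not called over both later arrays (-0.48). Shisa3, an antagonist of Wnt and FGF receptors, had 347 and 279 at day 1, 217 at day 7 and 1165 at day 14 (0.63, not called). Snord49b, a small nucleolar RNA, had 1247 and 1658 at day 1, 1764 at day 7 and 5629 at day 14, high at day 14 alone, and its call (1.09) was lost without that array (0.28) or the first day 1 array (0.90).

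Among other genes with a time course of their own, Niban1, a stress-response gene, had 303 and 379.9 at day 1, 1048 at day 7 and 2690.2 at day 14, which is a progressive rise. Sprr1a, a cornified envelope gene known from injured neurons and muscle, had 1706 and 828 at day 1, 8736 at day 7 and 2388 at day 14. Its day 1 arrays were far apart, day 7 was highest, and its call (1.87) was lost without the 7-day array (0.95) or the second day 1 array (adjusted p = 0.054 by limma).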
